A study of Mus musculus with 22 samples.

Results

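The genes for the proteins of the cytosolic ribosome were followed in ChIP-seq peak lists of H3K4me3 and H3K27ac from differentiating G1ER cells. Members were protein-coding GENCODE M21 genes (mm10) whose symbol begins with Rpl or Rps and a digit, together with Rplp0, Rplp1, Rplp2, and Rpsa, and without the Rps6k kinase genes. The rule found 92 of 21853 protein-coding genes. They comprised 77 genes of the canonical ribosome (46 of the large and 31 of the small subunit), 7 diverged paralogues, 7 annotated retrocopies, and Rps19bp1, which meets the rule by its symbol but encodes no ribosomal protein. Each gene was read through the peaks that touch a window of 2 kb either side of 1 transcription start site (TSS).

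G1ER (G1E-ER4) cells are a mouse erythroid progenitor line that lacks endogenous GATA1 and carries GATA1 fused to an estrogen receptor domain, so that β-estradiol switches GATA1 on and starts erythroid maturation. All cells were grown with stem cell factor and erythropoietin, and they were taken undifferentiated (0 h) or 2, 6, 12, or 24 h after β-estradiol was added. Each mark had 10 lists, with 2 replicates at each of the 5 times, and CTCF had 1 list each at 0 and 24 h. The line is a single established line, and the labels do not say whether the replicates were separate cultures, so the spread between them may be technical.

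The ribosome is built from ribosomal RNA and one copy of nearly every ribosomal protein, and its genes are among the most highly transcribed of a growing cell. Their mRNAs carry a 5′ terminal oligopyrimidine (TOP) tract, a run of C and T from the first base that puts their translation under control of growth signals. H3K4me3 marks the start of active genes, and H3K27ac marks active promoters and enhancers. Red cell precursors are sensitive to a shortage of ribosomal proteins, which causes Diamond-Blackfan anaemia and the anaemia of the 5q- syndrome.

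The bases around the start show runs of C and T that differ in length and place. The windows below run from 30 bases before to 20 bases from the start, on the strand of the gene, from RefSeq's GRCm38.p6 genome, at the GENCODE start of each gene. Capitals mark the longest run of C and T that touches the 10 bases either side of the start. Rps2 and Rpl34 (with runs of 20) and Rps24 (with 19) had the longest runs of all members. The median run was 5 bases over the 77 canonical genes and 4 over all protein-coding genes, so the canonical genes shown are not typical. Of the genes shown, only Rps2 and Rps24 had a C at the start followed by 4 more pyrimidines. Rpl22 is shown beside its paralogue Rpl22l1, Rpsa is the member also known as the laminin receptor, and Rpl3l, Rpl10l, and Rpl39l are the paralogues that had no H3K4me3 peak.
Rps2 (chr17:24720080-24720129, plus strand): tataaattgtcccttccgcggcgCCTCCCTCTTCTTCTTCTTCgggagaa
Rpl34 (chr3:130730318-130730367, minus strand): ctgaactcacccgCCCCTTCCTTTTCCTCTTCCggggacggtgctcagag
Rps24 (chr14:24490688-24490737, plus strand): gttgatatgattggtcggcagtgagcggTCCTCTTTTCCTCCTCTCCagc
Rpl22 (chr4:152325837-152325886, plus strand): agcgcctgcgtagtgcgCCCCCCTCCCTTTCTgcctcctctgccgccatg
Rpsa (chr9:120127659-120127708, plus strand): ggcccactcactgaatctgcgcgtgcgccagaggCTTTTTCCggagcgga
Rpl22l1 (chr3:28805406-28805455, plus strand): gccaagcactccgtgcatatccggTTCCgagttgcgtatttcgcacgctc
Rpl3l (chr17:24727790-24727839, plus strand): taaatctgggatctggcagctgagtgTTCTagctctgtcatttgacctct
Rpl10l (chr12:66284382-66284431, minus strand): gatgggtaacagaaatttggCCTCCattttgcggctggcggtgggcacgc
Rpl39l (chr16:10170198-10170247, plus strand): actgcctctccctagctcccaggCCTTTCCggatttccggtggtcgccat

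A run of at least 8 pyrimidines touched the start of 25 of the 77 canonical genes (32.5%), against 13.1% of all protein-coding genes. A strict TOP start, a C followed by 4 more pyrimidines, was found at 8 of them (10.4%) and at 2.25% of all genes. These counts depend on annotated starts, which can lie some bases from the base where transcription begins. Over 250 bases before to 50 after the start, the canonical promoters had a median GC content of 55.7% (all genes, 56.0%). Their median CpG ratio, observed over expected, was 0.851 (all genes, 0.557). At the other promoters with H3K4me3 in all 10 lists, the median GC content was higher, at 61.0%, and the median CpG ratio was nearer, at 0.798. Of 5 motifs counted on both strands, each on its own although matches of different motifs can overlap, the ETS motif CCGGAAG was present in 29.9% of canonical promoters, 11.2% of all promoters, and 21.6% of the other promoters that had H3K4me3 in all 10 lists, called marked in the next sentences. The YY1 motif AAGATGGC was present in 5.19% of canonical promoters (all, 3.06%; marked, 5.57%) and the SP1 motif GGGCGG in 48.1% (all, 45.6%; marked, 67.4%). TATAAA was present in 10.4% (all, 12.5%; marked, 6.22%), and the GATA motif AGATAA in 7.79% (all, 9.75%; marked, 5.86%). A motif match is a description of letters and not a bound site.

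Lists held 12925 to 14452 peaks for H3K4me3 and 17247 to 18333 for H3K27ac, with 81 to 84 and 70 to 76 members per list. The lists give no read counts, so the depth behind each peak is unknown. Of 8 erythroid marker genes, 7 had an H3K4me3 peak in at least 1 list and 4 in all 10, whereas Tal1 had none at the start used. Markers too were read at 1 annotated start each, so a peak at another start of the gene was not counted. For H3K27ac the counts were 5 and 2. Of 13 markers of T cells, B cells, macrophages, liver, and neurons, none had an H3K4me3 peak and 1 (Cd68) had an H3K27ac peak in any list.

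Most canonical ribosomal protein promoters were marked throughout differentiation, more of them by H3K4me3 than by H3K27ac. H3K4me3 was present in all 10 lists at 72 of the 77 canonical genes (93.5%), in 1 to 9 lists at 4, and in none at 1. Over all protein-coding genes, 43.6% had a peak in all 10 lists. H3K27ac was present in all 10 lists at 60 of the 77 (77.9%), in 1 to 9 lists at 13, and in none at 4, against 38.9% of all genes. The same 60 genes held both marks in every list. Of the canonical genes with an H3K4me3 peak in any list, 5.263% had it in only 1 to 9 lists, close to the 5.283% over all genes. For H3K27ac the shares were 17.81% and 13.45%. Of the mitochondrial ribosomal protein genes, 98.7% had H3K4me3 and 97.4% had H3K27ac in all 10 lists, and of 24 ribosome biogenesis genes 24 and 21 did. Of 18 other genes with TOP mRNAs, 17 had H3K4me3 and 10 (55.56%) had H3K27ac in all 10 lists. The lower share for H3K27ac was thus not particular to ribosomal protein genes.

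The paralogues and retrocopies differed among themselves. H3K4me3 in all 10 lists was found at 4 of the 7 paralogues, namely Rpl22l1, Rpl36al, Rpl7l1, and Rps27l. Rpl3l (a muscle form of Rpl3), Rpl10l (a testis form of Rpl10), and Rpl39l (a testis form of Rpl39) had no H3K4me3 peak in any list, whereas their canonical partners Rpl3, Rpl10, and Rpl39 had both marks in all 10. The single H3K27ac peak counted for Rpl3l, 7613 bp long in the second list at 6 h, was the peak of its upstream neighbour Rps2, which touched the edge of the window. Among the 7 retrocopies, Rps27rt had an H3K4me3 peak in all 10 lists, but it was 474 to 829 bp long and ranked low (median percentile 20.6). Rpl9-ps6 had an H3K4me3 peak in 9 lists, Rps12-ps3 in 6, and Rpl10-ps3 in 2, and none of these peaks was longer than 815 bp. The remaining 3 had neither mark in any list. Reads that match both a gene and its copies were dropped by the use of unique alignments, so low levels at near-identical copies are uncertain.

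The 1 canonical gene without H3K4me3 was Rps14, the small subunit gene deleted in the 5q- syndrome, and its absence followed from the start chosen. The TSS selected by the rule lies 26925 bp upstream of the next cluster of annotated protein-coding starts of Rps14. At that cluster H3K4me3 was present in all 10 lists, with a length of 3451 to 4033 bp (median 3962) and a percentile of 70.0 to 87.5. H3K27ac was present there in all 10 lists as well, at 3739 to 4612 bp. When any annotated start of a gene was accepted, a choice made after the data were seen, 73 canonical genes had H3K4me3 in all 10 lists, 4 in 6 to 9 lists, and none lacked it. By the same count H3K27ac was present in all 10 lists at 61.

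Peaks at canonical ribosomal protein promoters were long. In this text the length of a promoter is the summed full length of all peaks of a list that touch its window. In every H3K4me3 list the median over canonical promoters with a peak, 3906 to 4215 bp, was higher than the median over other promoters with a peak, 2549 to 2756 bp, with a ratio of 1.51 to 1.55. For H3K27ac the medians were 4546 to 5132 bp against 2646 to 2886 bp, with a ratio of 1.69 to 1.84. The ranges of the sets over lists did not overlap for either mark. Restricting both sets to promoters that are the only TSS inside their peaks left 3935 bp against 2480 bp for H3K4me3 and 4617 bp against 2593 bp for H3K27ac.

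**Figure D1:**
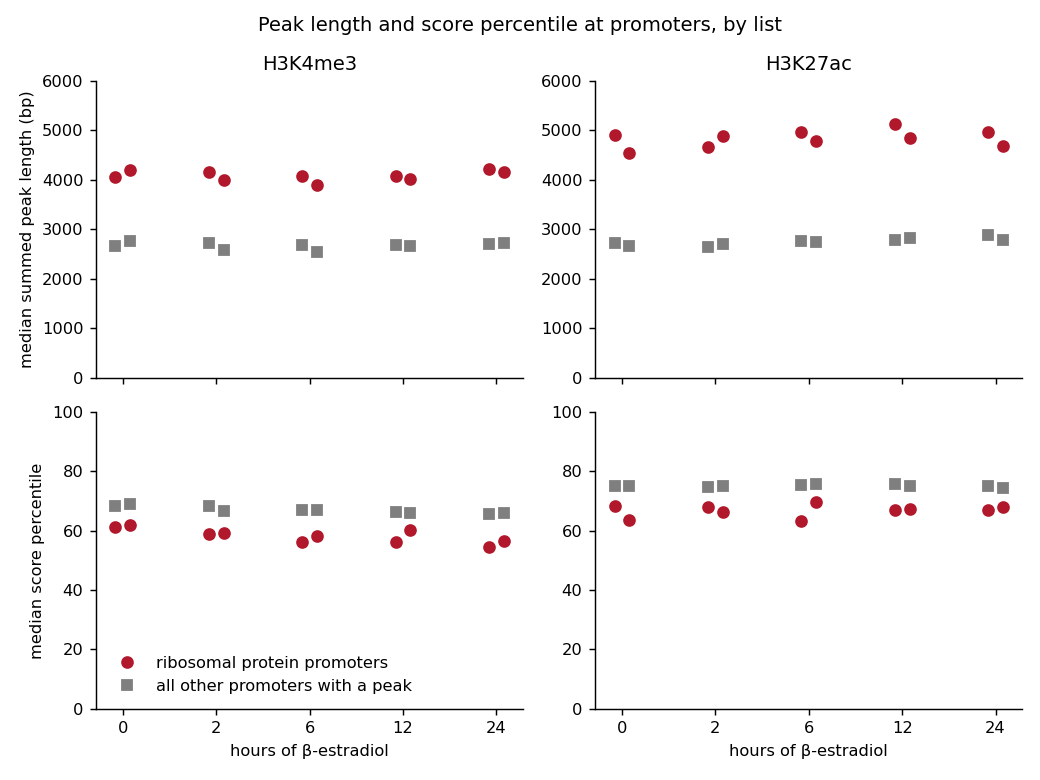
Median summed peak length (bp, upper row) and median score percentile (lower row) of the 77 canonical ribosomal protein promoters (red circles) and of all other promoters (grey squares), among those with a peak, in each of the 2 lists per time for H3K4me3 (left) and H3K27ac (right). In every list the red point lies above the grey one for length and below it for percentile.

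The mitochondrial ribosomal protein genes, which encode a separate ribosome, were shorter. Their 78 promoters had median lengths of 2552 bp for H3K4me3 and 2425 bp for H3K27ac. Other genes with TOP mRNAs had higher medians than the canonical ribosomal protein genes, for which the medians over promoters were 4060 bp and 4786 bp. This list of 18 holds the translation factors Eef1a1 and Eef2 and the ribosomal fusion gene Fau, among others, and had medians of 4320 bp and 5820 bp. Ribosome biogenesis genes (24, among them nucleolin and fibrillarin) lay between, at 3315 bp and 3755 bp. These lists are described by their medians only.

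The additional length lay on the gene side of the start. H3K4me3 reached a median of 966 bp upstream of the TSS at canonical promoters and 978.5 bp at other promoters, but 3037 bp against 1556 bp downstream. H3K27ac reached 1146 bp against 1119 bp upstream and 3671 bp against 1502 bp downstream. Canonical ribosomal protein genes are short, with a median of 3289 bp from end to end against 17380 bp for all protein-coding genes. Among canonical genes with a peak in at least 2 lists, 33 of 76 (43.4%) had H3K4me3 that ran past the end of the gene. Such H3K27ac was found at 39 of 71 (54.9%). Over all genes with a peak in at least 2 lists, which are mostly longer, the shares were 3.09% and 3.76%. These shares were not matched for gene length. Among genes under 3000 bp, H3K4me3 reached 2628 bp downstream at canonical promoters and 1426 bp at others, and from 3000 to 6000 bp it reached 3440 bp against 1505 bp. H3K27ac reached 3216 bp against 1544 bp and 3742 bp against 1494 bp in the same classes.

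**Figure D2:**
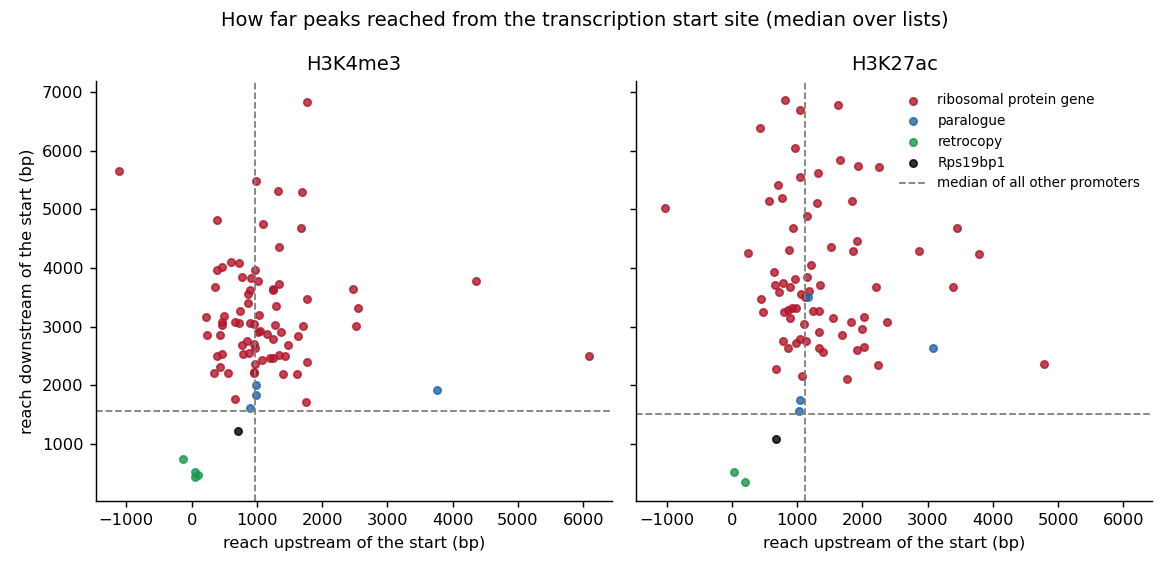
Distance in bp that peaks reached upstream (horizontal axis) and downstream (vertical axis) of the TSS, as the median over lists, for each member with a peak in at least 2 lists, coloured by class. Dashed lines give the medians of all other promoters, and most red points lie above the horizontal line while they scatter on both sides of the vertical one.

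H3K27ac spread farther than H3K4me3 at the same genes. It was the longer mark at 65 of 71 canonical promoters (91.5%), with a median ratio of 1.21, whereas over the other promoters it was longer at 54.3%, with a ratio of 1.02. The large subunit genes had medians of 4024 bp (H3K4me3) and 4744 bp (H3K27ac), and the small subunit genes 4160 bp and 5063 bp.

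Single genes spanned a wide range around these medians, and the following order holds for members with a peak in every list of the mark. Rpl35, a large subunit protein near the exit of the peptide tunnel, had the longest H3K4me3 at 7734 to 8478 bp (median 7962), followed by Rps18 (median 7041 bp) and Rpl18 (median 6670 bp). The Rpl35 peaks reached 4358 bp upstream as well as 3777 bp downstream. For H3K27ac the longest were Rps25 (median 7808 bp), Rpl12 (7615 bp), which sits at the base of the ribosomal stalk, and Rpl37 (7518 bp). At the short end, Rpl29 had 2339 to 2734 bp of H3K4me3 (median 2434), in the range of an ordinary promoter. Below it among these members were Rps27rt (568.5 bp) and the non-ribosomal Rps19bp1 (median 1960 bp of H3K4me3 and 1832 bp of H3K27ac). By the same count, the paralogues Rpl22l1 (2682 bp) and Rps27l (2692 bp) had the shortest H3K27ac after Rps19bp1.

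Rplp0, Rplp1, and Rplp2 form the stalk, which recruits translation factors. Rplp0 H3K4me3 measured 3583 to 4402 bp in the 10 lists. Its H3K27ac, however, fell into 2 sizes, with 3754 to 4817 bp in 7 lists and 7168, 7195, and 7360 bp in the first lists at 0 and 6 h and the second at 12 h. Those 3 lists gave the lowest percentiles, 21.4, 24.8, and 18.5, against 65.2 to 82.2 in the others. Rplp1 had 4288 to 4786 bp of H3K4me3, and 6390 to 7410 bp of H3K27ac in the 8 lists that held it. Rplp2 had 3182 to 3972 bp and 4220 to 5417 bp. Rpsa had 4466 to 5078 bp of H3K4me3 in every list, and 7597 to 8259 bp of H3K27ac in 7 lists. Rps19, the gene most often mutated in Diamond-Blackfan anaemia, had 4670 to 5644 bp of H3K4me3 and 5601 to 8169 bp of H3K27ac, both in all 10 lists.

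Long peaks came with low scores. The score is the caller's value for each peak and is compared only as a percentile within its own list, where 100 is the highest score. Canonical promoters had median percentiles of 54.6 to 61.9 for H3K4me3 and 63.4 to 69.6 for H3K27ac, below the 65.7 to 69.2 and 74.3 to 75.8 of other promoters in the same lists. Over all H3K4me3 peaks, the median score was highest from 3000 to 4000 bp, at 1285 in the median list, and it declined to 108.9 above 8000 bp. For H3K27ac it declined from 487.8 to 71.8 over the same classes. No peak of any H3K4me3 list was longer than 9200 bp and none of H3K27ac longer than 8973 bp, and the lowest score kept was 50.0. Within a length class, canonical promoters ranked higher in some classes and lower in others. From 2000 to 3000 bp, where each list held at most 9 canonical promoters, they ranked higher, at 84.4 against 76.1 for H3K4me3 and 88.0 against 82.7 for H3K27ac. Between 4000 and 5000 bp the median H3K4me3 percentile was 57.1 for canonical and 59.2 for other promoters, and between 5000 and 6000 bp it was 48.4 and 46.3. Between 5000 and 6000 bp the H3K27ac percentiles were 63.5 and 64.4.

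**Figure D3:**
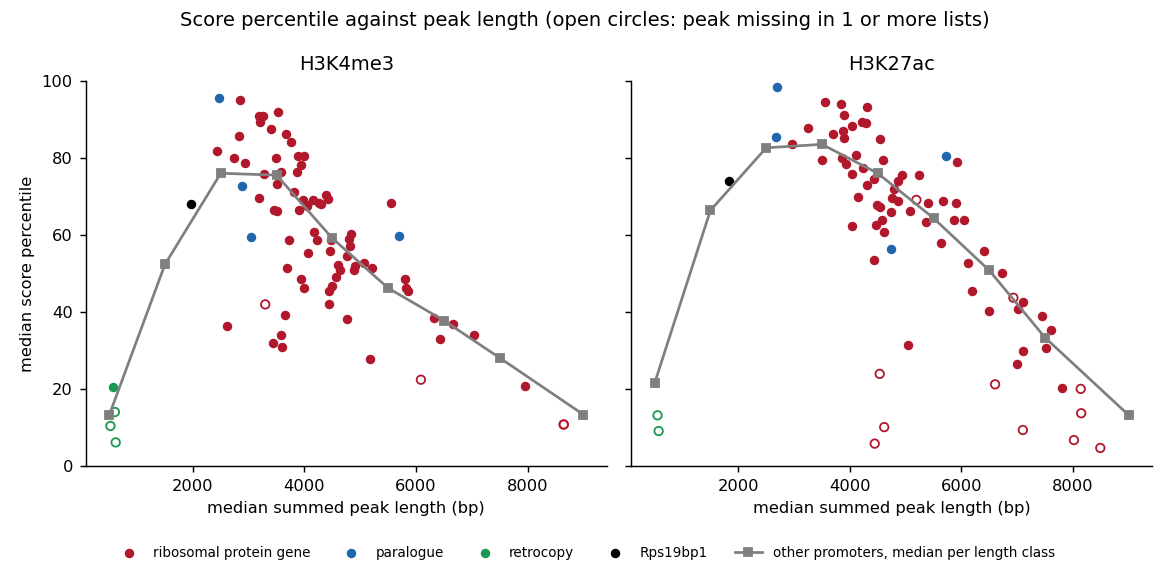
Median score percentile (vertical axis, 0 to 100) against median summed peak length in bp (horizontal axis) for members with a peak in at least 2 lists; open circles are members without a peak in 1 or more lists. The grey line joins the medians of other promoters per class of longest single peak, pooled over lists, whereas members are placed by summed length. The percentile declines with length above about 4000 bp in members and other promoters alike.

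The same inverse relation held within a gene from list to list. Over its 10 lists, the length and score of a promoter had a negative Spearman's rho at 72 of 72 canonical promoters for H3K4me3 (median rho -0.68) and at 60 of 60 for H3K27ac (median rho -0.87). At other promoters with a peak in all 10 lists it was negative at 89.2% (median -0.53) and 83.2% (median -0.47). All promoters share the same 10 lists, whose depth is unknown, so these values are descriptions. Rps25, a small subunit protein needed by some viral internal entry sites, gave a clear case. Its H3K27ac measured 7316 to 8254 bp at percentiles of 6.87 to 30.5 in 9 lists, and 4091 bp at a percentile of 71.4 in the second list at 24 h.

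Among members with a peak in every list, Rps27l, a p53-responsive paralogue of Rps27, ranked highest in both marks, with a percentile of 91.8 to 98.4 for H3K4me3 (median 95.7) and 90.6 to 99.4 for H3K27ac (median 98.5). Its canonical partner Rps27 had medians of 66.2 and 69.8. Next for H3K4me3 came Rps15 (median 95.1), and for H3K27ac Rps29 (94.5) and Rpl13 (94.1). The lowest H3K4me3 percentiles among members with a peak in every list belonged to Rps27rt, Rpl35 (median 20.9), and Rps24 (27.9). For H3K27ac they belonged to Rps25 (20.5), Rpl5 (26.5), a binding partner of 5S ribosomal RNA, and Rpl36a (29.8). Rpl36a was also lower than its paralogue Rpl36al, at 29.8 against 80.6 for H3K27ac.

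In the 4 pairs with both marks at both genes, H3K27ac was longer at the canonical gene. Rpl7 measured 5554 bp of H3K4me3 and 5925 bp of H3K27ac, and Rpl7l1 3034 bp and 4742 bp (medians over lists). Rpl22 measured 3908 bp and 5366 bp, and Rpl22l1 2886 bp and 2682 bp. Rps27 measured 3509 bp and 4150 bp, and Rps27l 2460 bp and 2692 bp. H3K4me3 was longer at the canonical gene of these pairs too, whereas Rpl36al (5688 bp) was longer in H3K4me3 than Rpl36a (3428 bp) and shorter in H3K27ac, at 5729 bp against 7100 bp. Rpl3 (5812 and 7012 bp), Rpl10 (3934 and 4744 bp), and Rpl39 (3998 and 4574 bp) had paralogues with no H3K4me3. Rps4x measured 4437 bp and 4474 bp, and the rule found no gene with the symbol Rps4l.

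By median, canonical promoters without a peak in some lists held longer and lower-scoring peaks than those with a peak in every list. The 4 such genes for H3K4me3 had a median length of 7368 bp where present, against 4048 bp for the 72 genes with a peak in every list. The 13 such genes for H3K27ac had a median of 6836 bp, against 4680 bp, and a median score of 73.2, against 438.2. Not all of these genes had long or low-scoring peaks. Their lengths ran from 3297 to 8648 bp for H3K4me3 and from 3409 to 8490 bp for H3K27ac. Scores ran from 91.95 to 597.8 and from 55.71 to 404.6. Other promoters with a peak in 1 to 9 lists had medians of 803 bp (H3K4me3) and 3235 bp (H3K27ac). What part low scores and long peaks had in these absences was not tested.

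**Figure D4:**
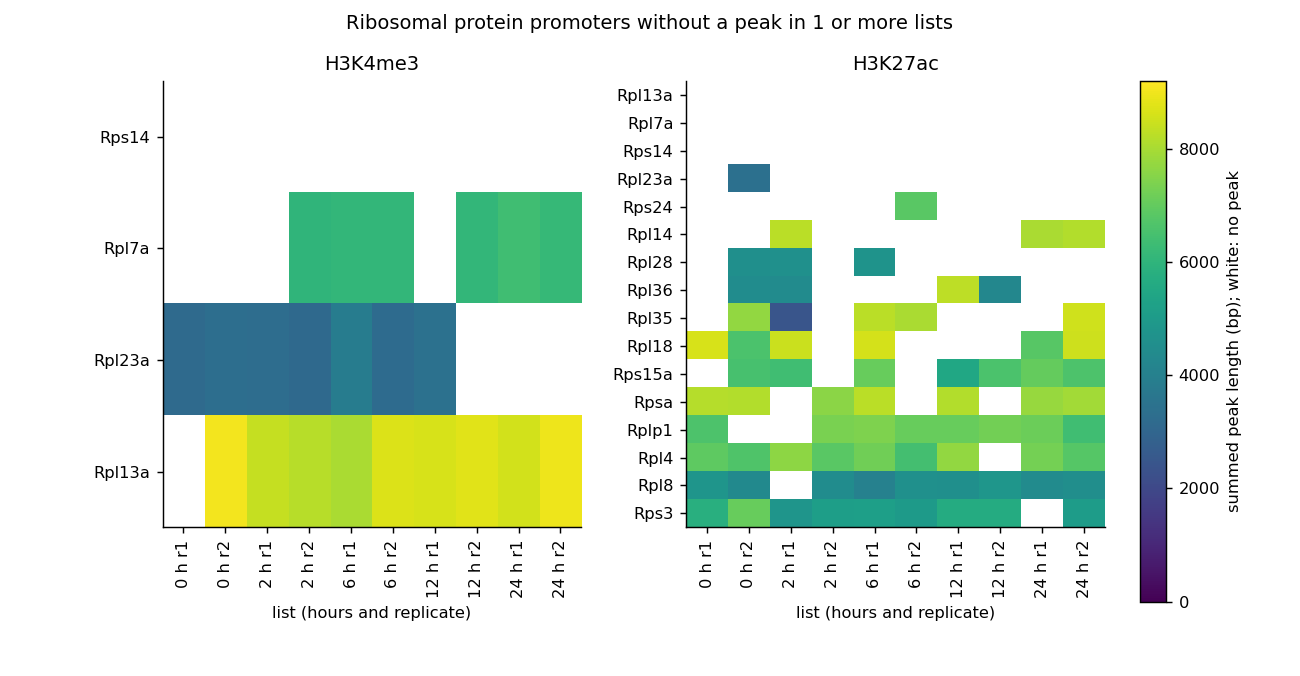
Summed peak length in bp (colour) of canonical ribosomal protein promoters named in the text that lack a peak in 1 or more of the 10 lists, by list (columns, hours and replicate) for H3K4me3 (left) and H3K27ac (right), white where no peak touched the window. Rps14 is white at the start used here, and present peaks are mostly above 4000 bp.

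Rpl13a (chr7:45125558-45128761, minus strand), a large subunit protein, had an H3K4me3 peak of 8016 to 9023 bp in 9 lists, at percentiles of 1.35 to 23.8, and none in the first list at 0 h. H3K27ac was absent in all 10 lists, with the nearest peak 4408 to 4902 bp from the start. Peaks this long can touch the windows of several genes, so members are not all independent.

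Rpl7a (chr2:26910764-26913318, plus strand) had no H3K4me3 peak in the 2 lists at 0 h, the first at 2 h, and the first at 12 h. In the other 6 lists it measured 6009 to 6363 bp with scores of 107.4 to 255.2. There the next peak lay 26 to 492 bp away, and both together spanned 9714 to 10341 bp. These lists held 3 peaks within 12 kb of the start. The lists without the Rpl7a peak held 1, at a distance of 6423 to 6604 bp, so more than 1 peak of this region was missing from them together. Rpl7a had no H3K27ac peak in any list.

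Rpl23a (chr11:78180932-78183584, minus strand), whose protein lies at the exit of the peptide tunnel, had H3K4me3 in 7 lists. It measured 3171 and 3340 bp in undifferentiated cells, 3297 and 3150 bp after 2 h, 3852 and 3199 bp after 6 h, and 3432 bp in the first list at 12 h. It had no peak in the second list at 12 h or in either list at 24 h. Its percentiles were 42.1 and 47.3 at 0 h. In the first list at 0 h the next peak lay 8 bp away, and in the lists without an Rpl23a peak the nearest one lay 5064 to 10630 bp from the start.

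Among the H3K27ac cases, Rpl14 (chr9:120571444-120574654, plus strand) had a peak in the first list at 2 h (8247 bp) and in both lists at 24 h (8035 and 8147 bp), with scores of 64.2 to 97.7. The next peak lay 70 to 208 bp away, and both spanned 10618 to 10733 bp. As at Rpl7a, these lists held 3 peaks within 12 kb and the other lists 1. H3K4me3 at Rpl14 was present in all 10 lists, at 4230 to 5663 bp. Rps24 had H3K27ac only in the second list at 6 h (6836 bp, score 55.7), although its H3K4me3 measured 4598 to 5750 bp in every list. Rpl23a had H3K27ac only in the second list at 0 h. Rpl28 and Rpl14 had it in 3 lists each, Rpl36 in 4, Rpl35 in 5, and Rpl18 in 6. Of these, Rpl28, Rpl36, Rpl35, and Rpl18 all had a peak in the second list at 0 h and the first at 2 h, and all but Rpl36 in the first at 6 h as well. Rps15a and Rpsa were held by 7 lists, and Rpl4, Rpl8, and Rps3 by 9.

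No member passed the test between 0 and 24 h in either mark. The test was limma across all promoters with a peak in at least 2 lists of a mark, with Benjamini-Hochberg adjustment over all of them; 85 members passed this filter for H3K4me3 and 78 for H3K27ac. With 2 lists against 2, an exact permutation test of a single promoter could not go below p = 0.333. No member was called longer or shorter in H3K4me3 at an adjusted p of 0.05, against 0.421% and 0.27% of all 9982 promoters tested. At an unadjusted p under 0.05, limma gave 6 members, 1 longer (1.18%; all promoters, 4.53%) and 5 shorter (5.88%; all, 4.72%). The median log2 difference of length was -0.03 over members and -0.01 over all promoters. Both lists at 24 h were longer than both at 0 h at 7 members (8.24%; all promoters, 18.2%) and shorter at 25 (29.4%; all promoters, 22.5%).

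H3K4me3 percentiles gave no call either, against 0.11% higher and 0.421% lower of all promoters, with 6 members at an unadjusted p under 0.05 in limma, 1 higher (1.18%; all, 1.87%) and 5 lower (5.88%; all, 12.9%). Both 24 h lists ranked higher at 7 members (8.24%; all, 9.41%) and lower at 27 (31.8%; all, 38.4%). The median difference was -2.50 percentile points over members and -3.18 over all promoters. The median percentile of canonical promoters was 61.6 ± 0.424 (SD, n = 2) at 0 h and 55.6 ± 1.45 at 24 h, and that of other promoters was 68.7 ± 0.636 and 65.9 ± 0.311. Both medians were lower at 24 h.

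For H3K27ac length, limma called no member, against 1.27% longer and 0.637% shorter of all 9583 promoters, and gave 4 members at an unadjusted p under 0.05, 3 longer (3.85%; all, 11.2%) and 1 shorter (1.28%; all, 4.04%). Both 24 h lists were longer at 16 members (20.5%; all, 30.8%) and shorter at 7 (8.97%; all, 13.8%). For H3K27ac percentiles limma called no member, against 0.115% higher and 0.417% lower, and gave 11 members at an unadjusted p under 0.05, 7 higher (8.97%; all, 5.54%) and 4 lower (5.13%; all, 7.42%). Both 24 h lists ranked higher at 15 members (19.2%; all, 22.1%) and lower at 10 (12.8%; all, 21%). Median differences over members were 0.01 in log2 length (all promoters, 0.05) and 0.17 percentile points (all, 0.15).

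**Figure D5:**
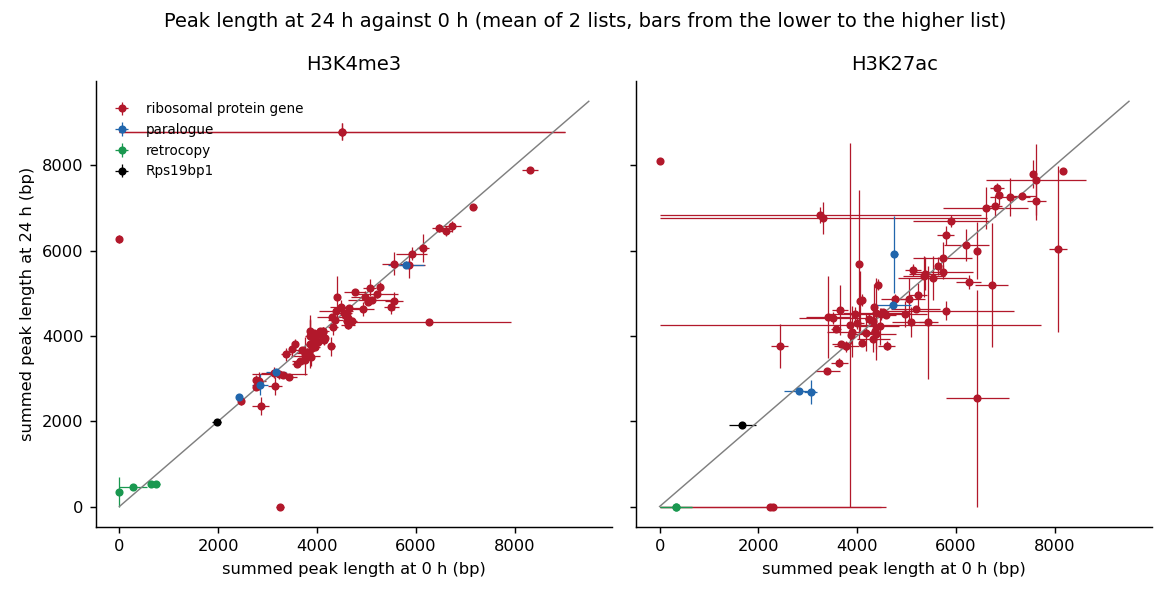
Summed peak length in bp at 24 h (vertical axis) against 0 h (horizontal axis) for members with a peak in at least 2 lists. Points are means of 2 lists, bars run from the lower to the higher list, and the grey line marks equal length; most points lie near it, and the bars that reach 0 are promoters with a peak in 1 of the 2 lists.

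By presence alone, Rpl23a was the 1 member with H3K4me3 in both lists at 0 h and neither at 24 h (1.18% of members; all promoters tested, 0.541%), and Rpl7a the 1 with the reverse (1.18%; all, 0.2%). For H3K27ac, Rpl14 was the 1 member with a peak in both lists at 24 h and neither at 0 h (1.28%; all, 0.804%), and 0 members had the reverse (all, 1.5%). Rpl23a came closest to a call, with a difference of -44.7 ± 9.74 (SE) percentile points in H3K4me3 and an adjusted p of 0.0868 in limma. Its length differed by -4.11 ± 1.03 on the log2 scale (adjusted p = 0.191). Leaving out either list at 12 h, which disagreed at this gene, brought the adjusted p for the percentile to 0.000222 (first list) and 0.0002 (second); over all alternatives it ran from 0.0002 to 0.337. The length at Rpl7a differed by 5.01 ± 1.73 (adjusted p = 0.422) and that at Rpl14 in H3K27ac by 5.37 ± 1.5 (adjusted p = 0.179). Without either list at 2 h the Rpl14 length passed, with an adjusted p of 0.00139 or 0.000119 in limma (0.000119 to 0.404 over all alternatives). When limma was fitted to only the 4 lists of these times, the lengths at Rpl23a, Rpl7a, and Rpl14 all passed, with adjusted p of 0.00222, 0.000249, and 0.00107 in limma. These genes were named for a difference in presence between the same 4 lists. At the time without a peak, both lists held the same length (SD 0). The p-values of that fit are therefore no separate support for a change. For Rpl23a the adjusted p of length ran from 1.4e-06 to 0.511 over all alternatives, and for Rpl7a from 0.000249 to 0.716. These differences set a peak against no peak, so their size depends on the 200 bp added before the logarithm.

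Rpl29, a heparin-binding large subunit protein, had the lowest adjusted p of all members in H3K27ac and a peak in every list. Its peak measured 2609 and 2246 bp at 0 h and 4271 and 3250 bp at 24 h, without overlap. The log2 difference was 0.58 ± 0.14 (limma, adjusted p = 0.137), and the percentile differed by -18.9 ± 3.85 (adjusted p = 0.0951). Its H3K4me3 averaged 2458 ± 50.9 bp before induction and 2465 ± 126 bp after 24 h (SD, n = 2). Without the second list at 24 h the H3K27ac length passed (0.77 on the log2 scale; adjusted p = 0.0482, and 0.0482 to 0.499 over all alternatives). With only the length inside the window, the log2 difference was 0.13 (limma, adjusted p = 0.499).

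Of 21 members linked to Diamond-Blackfan anaemia or 5q- syndrome, 20 had H3K4me3 and 16 had H3K27ac in all 10 lists, the exception for H3K4me3 being Rps14 at the start used. Their median lengths were 3837 bp and 4307 bp. None was called between 0 and 24 h by limma.

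Features that did not enter the selection of the canonical genes were counted, and not all of them set these genes apart. Of the 77, 30 (39.0%) hosted at least 1 small nucleolar RNA gene in their introns or exons, against 1.26% of all protein-coding genes and 1.74% of the others with H3K4me3 in all 10 lists, and together they held 58. H3K4me3 had a median length of 4494 bp at these hosts and 3945 bp at the other canonical promoters. An oppositely directed TSS lay within 1 kb of 11 canonical starts (14.3%; all genes, 9.12%; others with H3K4me3 in all 10 lists, 18.9%; mitochondrial ribosomal protein genes, 35.9%). A CTCF peak touched the window of 35 canonical promoters at 0 h (45.5%) and 41 at 24 h (53.2%). The shares at the other promoters with H3K4me3 in all 10 lists were 34.8% and 44.8%, and at mitochondrial ribosomal protein genes 39.74% and 48.72%. With 1 CTCF list per time, the difference between times has no replicate check. The median H3K4me3 length was 3936 bp at canonical promoters with CTCF at 24 h and 4388 bp at those without it, and 2728 bp and 2605 bp at other promoters.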

How the data were processed

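H3K4me3 and H3K27ac reads were aligned by the authors to mm10 (Bowtie2, default parameters), who kept unique alignments and called peaks with MACS without its model step, per library. The MACS version, control, and threshold, and any method for CTCF, are not given in the sources used here. The sample labels name a human build, but positions fitted mouse genes. The deposited score of each peak was used as a rank within its list. Read depth, and so precision, is unknown.

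One TSS per gene was taken from GENCODE M21 (longest transcript of the best APPRIS level), with windows of 2 kb either side. Summed peak length (log2 of bp + 200) and the percentile of the highest score (0 without a peak) were compared with limma 3.58.1 in R 4.3.3 (lmFit, eBayes with trend; 10 lists, 5 time means) over promoters with a peak in at least 2 lists, after a test on simulated data. No covariate was used. Python 3.11.15 with pandas 2.3.3 and numpy 2.4.6 was used otherwise.

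Members and lists were chosen with earlier results of these data known. Named members were those called (none), the 3 highest and lowest by percentile, the 3 longest and shortest, up to 8 per mark without a peak in some lists, the stalk genes with Rpsa and Rps19, and paralogue pairs. Beyond this rule, Rps2 and Rpl34 were named for their sequence, and Rps3, Rps23, and further members with H3K27ac in some lists only after their values were seen. Some members that the rule names are not reported here. Alternatives were other peak sets, windows, starts, filters, pseudocounts, length definitions, scalings, a logit, a replicate block, a fit to 4 lists, and leaving out each list.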

Additional observations from a re-analysis of the deposited data

How the results depend on the processing

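Counts of called members were 0 in all 4 comparisons of 24 h with 0 h. With equal numbers of top-scoring peaks, 2 of 85 members were called in H3K4me3 length (Rpl13a among them), and 62 of all promoters. In the fit to the 4 lists at 0 and 24 h alone, 2 of 84 members were (Rpl23a and Rpl7a), and 87 of all promoters. That fit also called 1 of 84 members in H3K4me3 percentile (Rpl23a), and 46 of all promoters. In H3K27ac length it called 1 of 74 members (Rpl14), and 266 of all promoters. The genes it called had a peak in both lists of 1 time and neither of the other, where both values were 0. What part this had in the calls was not tested. Every other alternative that kept all lists gave 0. Leaving out each list in turn gave 0 to 2 members for H3K4me3 length, 0 to 1 for H3K4me3 percentile, 0 to 3 for H3K27ac length, and 0 to 1 for H3K27ac percentile. A list left alone at its time was assumed to vary like the other groups. The 2 calls in H3K4me3 length came without the second list at 0 h (Rpl13a among them), and the 3 in H3K27ac length without the second list at 24 h (Rps3, Rps23, and Rpl29). Without the first list at 24 h Rps25 was called in H3K27ac length and percentile. No difference at Rpl7a, Rpl14, Rpl23a, or Rpl29 changed sign. The members' median differences in H3K27ac, which lay near 0, did: that of log2 length was -0.05 with lengths scaled by the list's median and -0.02 without the first list at 24 h, and that of percentile was -1.22 without the first list at 0 h and -0.41 without the second at 24 h. Replicate numbers were shared across times, and the deviations of same-numbered lists correlated by -0.0823 to 0.13 over pairs of times. These values cannot tell whether same-numbered lists shared a culture. The replicate block called 0 members in each comparison.

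H3K4me3 was present in all 10 lists at 78 of the 92 members and H3K27ac at 65. With higher-scoring peaks only (at or above the pooled median score), the counts fell to 41 and 40, as that filter keeps fewer peaks. Other windows, starts, and peak sets gave 77 to 79 and 64 to 69, and leaving out a list gave 78 to 80 and 65 to 66. Unknown depth limits every absence: a missing peak is not absence of the mark.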

Other observations

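Processed pseudogenes named for ribosomal proteins are far more numerous than the genes. Among 290 of them, H3K4me3 touched the window in all 10 lists at 36 (12.4%) and in none at 211 (72.8%). H3K27ac was present in all 10 lists at 25 (8.62%) and in none at 229 (79.0%). Peaks of neighbouring genes are counted in these windows.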
